A study of Mus musculus with 10 samples.

Results

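The genes described here encode the mitochondrial ribosomal proteins and were taken as all symbols that begin with Mrpl or Mrps followed by a number. They are 78 of the 21098 genes in the count table, 49 with an Mrpl symbol and 29 with an Mrps symbol. Gastrocnemius (GAS) muscle came from wild-type male C57BL/6J mice made obese by a high-fat diet (DIO mice) that began at 9 weeks of age. After 9 weeks on the diet, 5 mice received 10 mg/kg of an anti-miR-22 antisense oligonucleotide (ASO, labelled RES-010) under the skin once a week for 14 weeks, and 5 mice (CTRL) received saline in a matched volume. All 10 mice were described as obese and on the high-fat diet, none received a control oligonucleotide, and the muscle was taken from animals described as 30 weeks old. In the body weights that the study lists for its DIO mice, several CTRL mice were lighter than every ASO mouse at the first treatment day. These weights are not linked to single libraries. Polyadenylated RNA of each mouse gave 1 stranded library, and what was counted is read pairs on the last 500 bp, or less, of annotated 3′UTRs, summed here per gene. The libraries held between 1606909 and 2116720 counts in CTRL and between 2239186 and 2632560 with the ASO, so every treated library was deeper.

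The mitochondrial ribosome translates the few membrane proteins of the respiratory chain that mitochondrial DNA encodes. Its RNAs are made inside the organelle, whereas its proteins are all encoded in the nucleus, made in the cytosol and imported. Some of them have counterparts in the bacterial ribosome and others exist only in mitochondria. By their place in the mitoribosome, 51 of the 78 genes belong to the large subunit, 26 to the small subunit, and Mrps36 is today placed in the oxoglutarate dehydrogenase complex. Mrps18a and Mrps30 carry a small-subunit symbol but are proteins of the large subunit.

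The target of the ASO is shown first because the members were searched for sites that it pairs with. The mature microRNA is given from RefSeq (GRCm38.p6, chr11:75463772-75463793, plus strand), with the seed, bases 2 to 8, in capitals.
miR-22-3p: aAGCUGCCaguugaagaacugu
The complement of this seed, GGCAGCT, was found in the canonical 3′UTR of 8 of the 78 members (10.3%), compared with 13.5% of the canonical 3′UTRs of 21687 protein-coding genes. The 3′UTRs of the members were also shorter, with a median of 861.5 bases against 1011. Among the 8 members with a match, 5 were tested for a change, and Mrpl52 and Mrpl11 were past the threshold, both higher. The median log2 fold change (log2FC, ASO over CTRL) was 0.22 in the 5 tested members with a match and 0.26 in the 55 without. The following windows, with the 7 matching bases in capitals, are those of the 2 members that rose and of Mrpl41, whose counted segment contains its match.
Mrpl52: accacaaagctGGCAGCTgtggatctctg
Mrpl11: ctttatccaggGGCAGCTtcaggcctccc
Mrpl41: caaagagtaggGGCAGCTtcctagcgcac
They lie in GRCm39 at chr14:54668045-54668073 (plus strand), chr19:5016057-5016085 (plus strand) and chr2:24864159-24864187 (minus strand). The match of Mrpl52 is past the segment on which the gene was counted, chr14:54667137-54667206. The match of Mrpl11 is also past its main segment, chr19:5014473-5014972, and the segment at the end of the longer 3′UTR, where the match would be included in the transcript, held 0.157% of the gene's counts. None of the matches in the 8 members was followed by an A, the base that extends the match in the stronger class of sites. A match of letters is a description and not a site of repression.

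Of the 78 members, 73 had at least 1 count and 60 passed the filter on low counts, edgeR's minimum of about 4.59 CPM (counts scaled to a common library size) in 5 libraries. The 5 at 0 in every library were Mrpl23, Mrpl24, Mrpl28, Mrps10 and Mrps12. The first 3 have no base outside segments shared with other transcripts, and the other 2 have 1 or 2 such bases, so the 0 of these genes does not show that they are silent. Another 13 members were counted but not tested, namely Mrpl15, Mrpl19, Mrpl20, Mrpl30, Mrpl39, Mrpl57, Mrps16, Mrps21, Mrps25, Mrps26, Mrps30, Mrps35 and Mrps36. No member passed through 1 group alone, although Mrpl47 and Mrpl55 reached the minimum in every ASO library and not in every CTRL library.

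Mitochondrial ribosomal protein genes were more often higher than lower in treated muscle. By the quasi-likelihood test of edgeR, with p adjusted by Benjamini-Hochberg over the 7813 genes tested, 14 of the 60 tested members (23.3%) were higher with the ASO at an adjusted p under 0.05, where 11.8% of all tested genes were higher. Only 3 members were lower, compared with 17.4% of all genes, and 43 were not called. The median log2FC of the 60 was 0.25, against −0.03 over all genes, and 43 had a positive and 17 a negative value. The 5 ASO libraries lay entirely above the 5 CTRL libraries in 8 members, where 7.97% of all genes did so, and entirely below in 2, where 13.4% did so. All 3 lower calls lay on segments upstream of the distal end of the gene. Of 13 members with a main segment over 500 bp upstream, 3 were higher (23.1%), and of the 47 others 11 (23.4%). Among genes that are no members, 5.18% and 14.6% were higher at these positions. Counted at the most distal segment alone, 6.12% of the 49 members tested there were higher, near the 5.75% of all genes, as described further on. That fit scales the libraries anew, and Mrpl2, Mrpl11, Mrpl33 and Mrpl52, called higher here, were not tested in it.

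**Figure D1:**
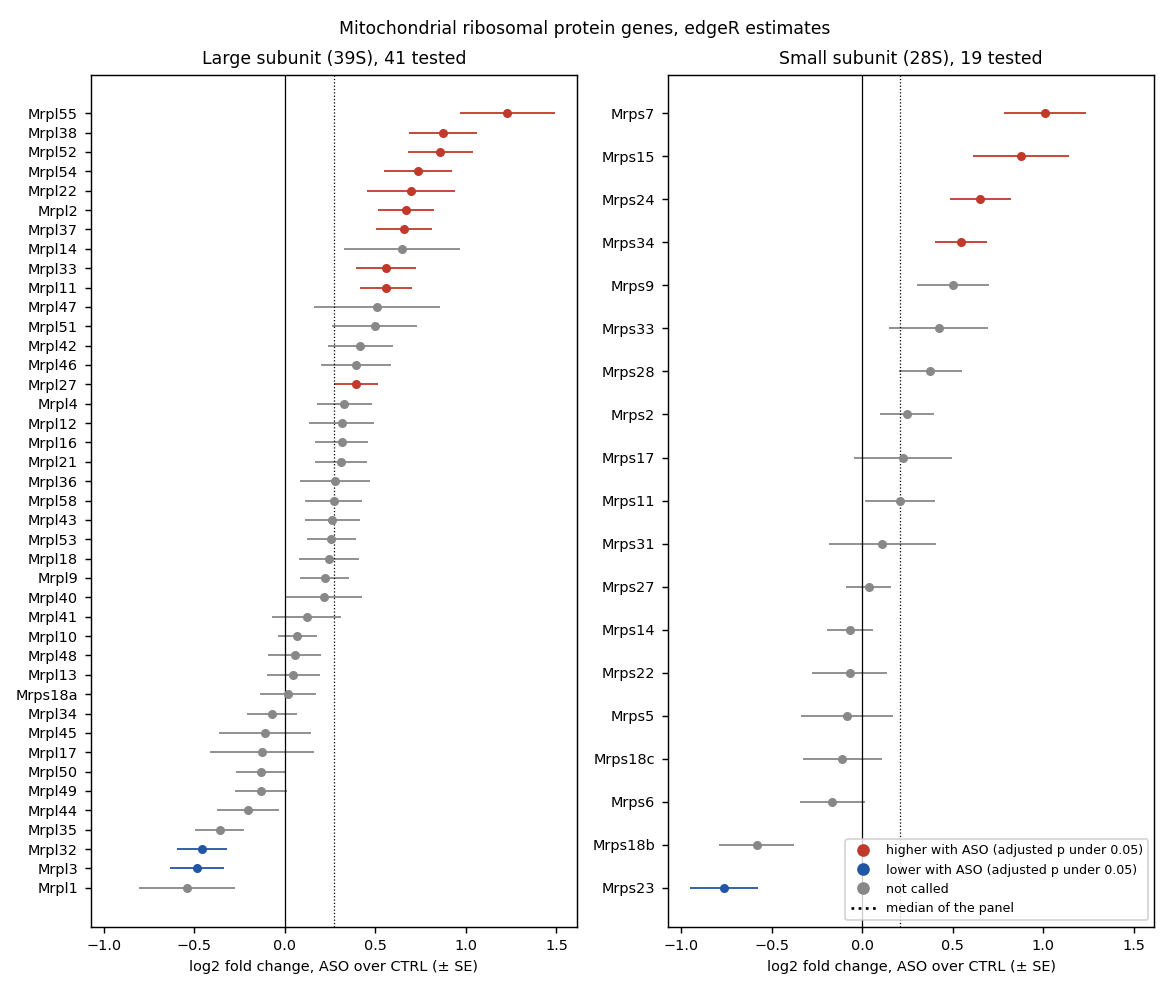
Log2 fold change (ASO over CTRL, horizontal axis, with its standard error (SE) as a bar) of the 60 tested members, 41 of the large subunit at the left and 19 of the small subunit at the right. Red points are the 14 members called higher, blue points the 3 called lower and grey points those not called; the dotted line is the median of each panel, 0.27 and 0.21.

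The large subunit holds the peptidyl transferase centre and the tunnel through which the new chain leaves. Of its 41 tested proteins, 10 were higher (24.4%) and 2 lower (4.88%), where 11.8% and 17.4% of all tested genes were. Their median log2FC was 0.27. Mrpl55, the homologue of a bacterial protein, had the largest ratio of all members at a low level, with 6.1, 7.9, 3.4, 4.7 and 3.9 CPM in CTRL and 11.02, 10.96, 13.01, 14.50 and 12.17 CPM with the ASO (CPM values are on the TMM-scaled library size). The groups did not overlap, and log2FC was 1.23 (standard error, SE, 0.26, adjusted p = 0.0046 by the quasi-likelihood test of edgeR with Benjamini-Hochberg adjustment, as for each adjusted p given here).

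Mrpl52 and Mrpl38, both specific to mitochondria and part of the central protuberance, also rose without overlap. Mrpl52 had 40.2, 31.9, 22.6, 31.0 and 28.4 CPM in CTRL and 53.7, 45.1, 64.2, 48.9 and 68.3 CPM in treated mice, a log2FC of 0.86 (SE 0.18, adjusted p = 0.0040). Mrpl38 had 90.3, 80.5, 49.0, 76.1 and 73.6 CPM in CTRL and 106, 121, 176, 120 and 155 CPM with the ASO, a log2FC of 0.88 (SE 0.19, adjusted p = 0.0047). In both genes the lowest CTRL library was CTRL 3, and ASO 3 and ASO 5 were the highest treated libraries.

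Mrpl2 is the counterpart of a bacterial protein close to the peptidyl transferase centre. It was among the highest members in CPM per kb of unshared bases, those not shared with other segments (1049). Its values were 157, 162, 117, 139 and 125 CPM in CTRL and 197, 189, 286, 198 and 244 CPM with the ASO, and the adjusted p for its log2FC of 0.67 (SE 0.16) was 0.0071. Mrpl37, specific to mitochondria, followed with 104, 95.8, 71.6, 83.1 and 89.7 CPM in CTRL and 124, 115, 168, 127 and 168 CPM in treated mice (log2FC 0.66, SE 0.16, adjusted p = 0.0077). Neither gene had an overlap between the groups. CPM per kb can be high on short segments at few counts, as in Mrps15, with 972 CPM per kb on 15 bp. It therefore does not rank the members by transcript abundance.

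Mrpl54, a mitochondria-specific protein counted on 152 bp, had the highest CPM per kb of unshared bases of all tested members (1259). It was counted at 194, 148, 105, 124 and 146 CPM in CTRL and at 228, 192, 296, 197 and 283 CPM with the ASO (log2FC 0.74, SE 0.19, adjusted p = 0.011), and the highest CTRL library lay just above the lowest treated one. Mrpl11, the homologue of a bacterial protein at the base of the factor-binding stalk, had 209, 186, 133, 151 and 159 CPM in CTRL and 242, 234, 240, 236 and 281 CPM in treated mice. Its treated libraries were all above CTRL, with a log2FC of 0.56 (SE 0.14, adjusted p = 0.012).

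The other large-subunit proteins that rose were Mrpl33, Mrpl27 and Mrpl22, which all have bacterial counterparts. Mrpl22, which lines the exit tunnel, had a log2FC of 0.70 (adjusted p = 0.048), Mrpl33 of 0.56 (adjusted p = 0.023) and Mrpl27, close to the peptidyl transferase centre, of 0.39 (adjusted p = 0.028). Mrpl33 was the most highly counted member, with 354 ± 84.8 CPM in CTRL and 522 ± 43.0 CPM in treated mice (SD, n = 5 each). Its main segment lies in an intron of the canonical transcript, 41740 bp upstream of the distal end, and held nearly all of its counts. Mrpl53, the second highest in CPM per kb of unshared bases (1082), had 296, 297, 217, 231 and 272 CPM in CTRL and 335, 318, 293, 276 and 344 CPM with the ASO. Its groups overlapped, and its log2FC of 0.26 (SE 0.14) had an adjusted p of 0.18. The calls of Mrpl22, Mrpl27 and Mrpl33 depended on the processing and on single libraries. Mrpl22 lost its call in 11 of 20 alternatives, Mrpl27 in 8 of 20 and Mrpl33 in 5 of 19.

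The small subunit binds the mRNA and decodes it. Of its 19 tested proteins, 4 were higher (21.1%) and 1 was lower (5.26%), where 11.8% and 17.4% of all tested genes were. Their median log2FC was 0.21. Mrps7, a conserved protein of the head, had 11.2, 8.8, 8.3, 7.6 and 7.8 CPM in CTRL and 12.9, 14.3, 21.8, 18.6 and 21.1 CPM in treated mice, without overlap (log2FC 1.01, SE 0.23, adjusted p = 0.0059). Of its 500-bp segment, 119 bp are also covered by a segment on the opposite strand, and since no strand option is named for the counting, its reads could include those of the opposite gene. Mrps24, which corresponds to a bacterial protein at the mRNA entry, Mrps34, which is specific to mitochondria, and Mrps15, a conserved rRNA-binding protein, also rose, by 0.65, 0.54 and 0.88 on the log2 scale (adjusted p = 0.012, 0.014 and 0.025). Mrps15 was counted on a segment of 15 bp, at 10.3 ± 2.51 CPM in CTRL and 18.9 ± 5.57 CPM with the ASO, and lost its call in 6 of 20 alternatives.

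**Figure D2:**
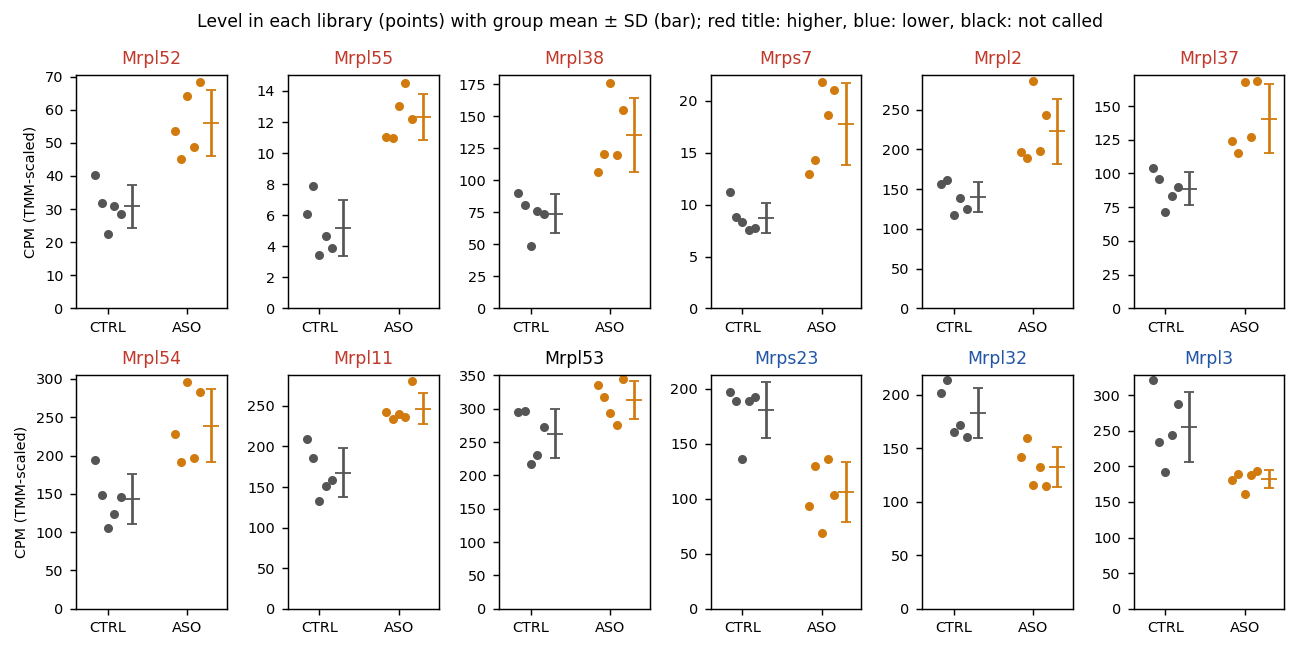
Level in CPM (vertical axes, which start at 0) of 12 members in each of the 5 CTRL and 5 ASO libraries (points), with the mean and SD of each group as a bar beside them. The 8 members with red titles rose, Mrpl53 in black was not called, and Mrps23, Mrpl32 and Mrpl3 in blue fell; CTRL 3 is the lowest control library in Mrpl55, Mrpl52, Mrpl38, Mrpl2, Mrpl37, Mrpl54, Mrpl11, Mrpl53, Mrps23 and Mrpl3.

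Grouped by origin, the called members came from both classes. Of 35 tested members with a bacterial homologue, 9 were higher (25.7%) and 2 lower (5.71%), with a median log2FC of 0.28. Of 25 mitochondria-specific members, 5 were higher (20%) and 1 lower (4%), with a median of 0.22. The shares of all tested genes were 11.8% higher and 17.4% lower. The difference between the 2 classes was not tested. Summed over all 78 members, the level was between 4666 and 6834 CPM in CTRL and between 6091 and 7079 CPM with the ASO, so the groups overlapped. The large-subunit sum went from 4557 ± 700 CPM to 5391 ± 375 CPM and the small-subunit sum from 1066 ± 109 CPM to 1117 ± 55.0 CPM (SD, n = 5 each).

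The members shifted together within single libraries of the same group. The median deviation of the 60 members from the CTRL mean, on the log2(CPM + 1) scale, was 0.31 in CTRL 1 and −0.27 in CTRL 3, and between −0.06 and 0.07 in the other 3 controls. In treated mice it was between 0.09 and 0.41, so CTRL 1 lay above ASO 1, ASO 2 and ASO 4. The same CTRL libraries were the extremes for the complex I subunits, at 0.50 and −0.40. Without CTRL 1, 16 members were higher, 1 was lower and the median log2FC was 0.36, and without CTRL 3 the values were 12, 5 and 0.20.

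The members that fell were Mrps23, Mrpl32 and Mrpl3. Mrps23, a mitochondria-specific protein of the small subunit, had 197, 189, 136, 189 and 192 CPM in CTRL and 93.4, 129, 69.3, 136 and 103 CPM in treated mice (log2FC −0.76, SE 0.19, adjusted p = 0.0093). CTRL 3 and ASO 4 were almost equal, at 136.307 and 136.298 CPM, and the other 4 treated libraries lay below every control. Mrpl32, a conserved protein whose processing by the mitochondrial AAA protease is needed for ribosome assembly, had 202, 214, 166, 172 and 161 CPM in CTRL and 142, 159, 116, 132 and 115 CPM with the ASO. Its groups did not overlap (log2FC −0.46, SE 0.14, adjusted p = 0.026). Mrpl3, a conserved core protein of the large subunit, had 321, 234, 192, 244 and 287 CPM in CTRL and 181, 189, 162, 189 and 193 CPM in treated mice. The lowest control, CTRL 3, lay within the treated range, and the log2FC was −0.49 (SE 0.15, adjusted p = 0.027). Leaving out CTRL 1, ASO 1, ASO 3 or ASO 5 left only 1 of these calls, that of Mrps23. Mrpl32 also lost its call without CTRL 2 or ASO 4, and Mrpl3 without CTRL 5 or ASO 2. Mrps18b missed the threshold, with 65.6 ± 9.44 CPM in CTRL and 43.8 ± 12.4 CPM with the ASO (SD, n = 5 each) and an adjusted p of 0.052, and is named as chosen after its values were seen.

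All 3 lower calls came from genes counted mainly upstream of their last annotated end. The main segment of Mrps23, with 69.1% of its counts, ends 536 bp before the most distal end in the table, and its last 500-bp segment, listed under 2 identical entries, is at 0 in both. The main segments of Mrpl32 and Mrpl3 end 2189 bp and 2422 bp before it. Of the 13 tested members whose main segment lay over 500 bp upstream, 3 were higher (Mrpl33, Mrpl11 and Mrps34) and 3 lower. Of the 47 others, 11 were higher and none lower. Among genes that are no members, 36.8% of those with an upstream main segment and 9.03% of the others were lower. The shares that were higher were 5.18% and 14.6%.

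**Figure D3:**
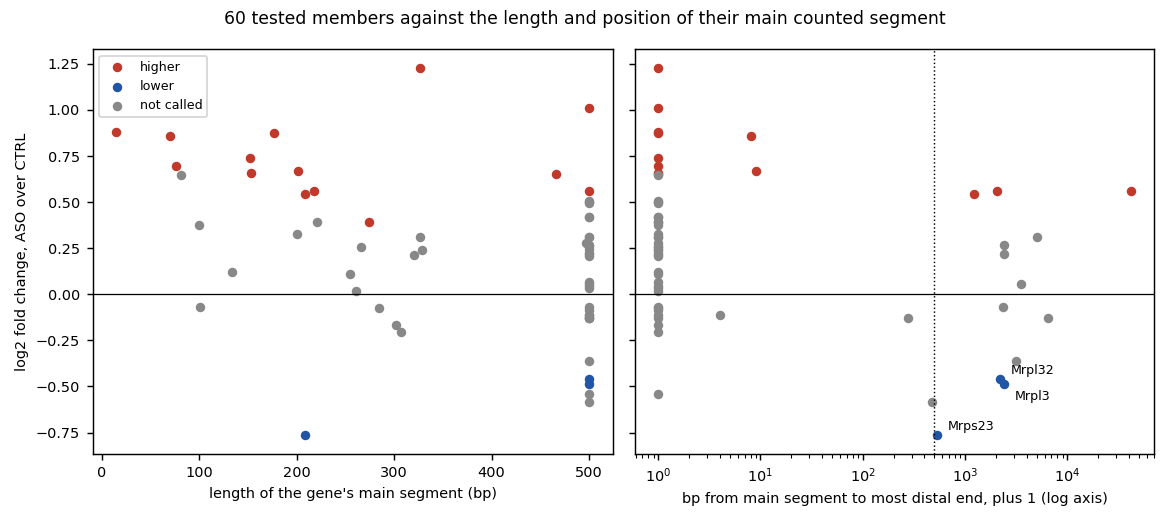
Log2 fold change (ASO over CTRL, vertical axis) of the 60 tested members against the length of the main counted segment in bp (left) and the distance of that segment from the most distal end in the table (right, log axis, with 1 bp added and a dotted line at 500 bp). Members with short segments sit mostly above 0, and the 3 blue points, Mrps23, Mrpl32 and Mrpl3, lie to the right of the dotted line.

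Mrpl3 shows how the position changes the value within 1 gene. It was counted on 5 segments of 500 bp on chromosome 9, and the ratio of the ASO mean to the CTRL mean rose from the first to the last. The segment 24261 bp upstream, mostly in an intron of the canonical transcript, had 30.0, 24.5, 25.5, 28.7 and 38.5 CPM in CTRL and 8.62, 13.5, 3.78, 6.63 and 11.2 CPM with the ASO, a log2 ratio of −1.75 without overlap. At 17752, 3416 and 2422 bp upstream the log2 ratio was −1.09, −0.50 and −0.13. At the most distal segment it was 0.27, with 11.7, 7.40, 4.41, 7.03 and 8.92 CPM in CTRL and 6.23, 11.4, 10.5, 7.46 and 12.2 CPM in treated mice, where the groups overlapped. Fitted on that segment alone, Mrpl3 had a log2FC of 0.03 (adjusted p = 0.96 by edgeR), the opposite sign of its call.

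Mrpl10, which anchors the factor-binding stalk, had opposite values at its 2 segments, and both lie in exons of the canonical transcript. The upstream segment (chr11:96939162-96939344) had 97.3, 87.5, 92.7, 92.5 and 106 CPM in CTRL and 74.3, 76.3, 44.5, 57.6 and 54.3 CPM in treated mice, all lower. The distal segment (chr11:96939540-96940039), 695 bp further on at its end, had 115, 118, 103, 102 and 99.2 CPM in CTRL and 143, 140, 178, 133 and 163 CPM in treated mice, all higher. Summed, the gene had a log2FC of 0.07 (adjusted p = 0.66).

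Of the 11 members with at least 2 segments of 100 counts or more, 10 had a higher ratio at the most distal of these segments than at the most upstream one, with a median difference of 0.54 on the log2 scale over all 11. The exception was Mrps34, where the distal segment lies outside the canonical transcript. The same shift was present across the table. In 1261 genes with segments at least 1000 bp apart, the median log2 ratio of distal to upstream counts was between −0.59 and 0.43 in CTRL and between 1.18 and 1.77 with the ASO, so the groups were apart in this measure.

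**Figure D4:**
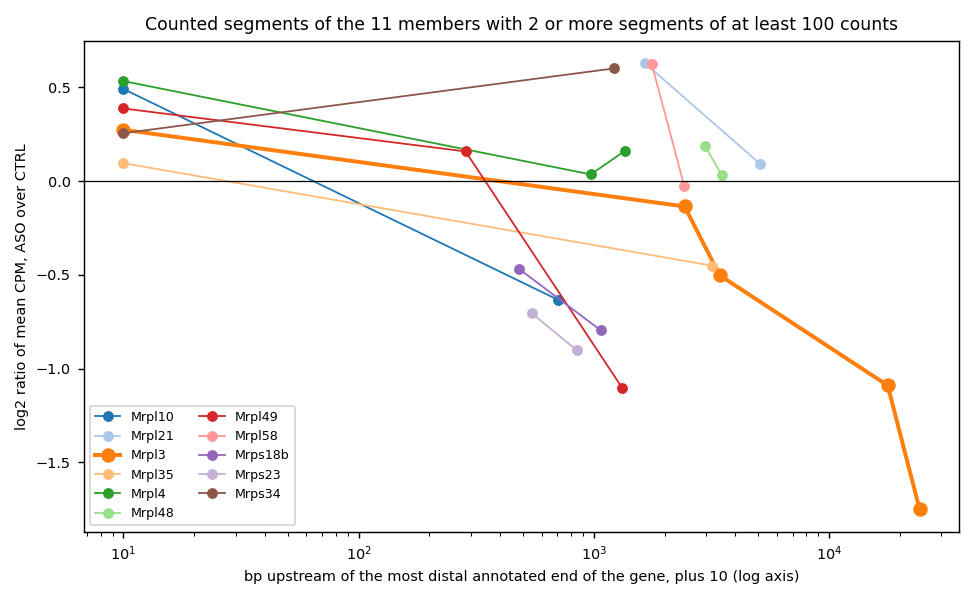
Log2 ratio of mean CPM (ASO over CTRL, vertical axis) of each counted segment against its distance upstream of the most distal end in the table (log axis, with 10 bp added), for the 11 members with at least 2 segments of 100 counts or more. Lines join the segments of 1 gene; the ratio of Mrpl3, drawn thick, falls from 0.27 at the distal end to −1.75 at 24261 bp, and Mrps34 is the 1 member with a higher ratio upstream.

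Each gene was also counted only on its most distal segment among those with bases not shared with other segments. Of 49 members tested in this way, 3 were higher (6.12%) and 1 was lower (2.04%), where 5.75% and 9.12% of 5528 genes were. The members called higher were Mrpl55, Mrpl38 and Mrps7. The one called lower was Mrps23, on the segment that ends 536 bp before its most distal end, as its last segment has no unshared base. The median log2FC was 0.03 for these members and −0.02 for all genes. For 28 members with a single segment, whose counts were the same in both fits, the log2FC was lower by between 0.24 and 0.26 in the distal fit, where the libraries are scaled anew. Between the fits the members' median dropped from 0.25 to 0.03, and the median of all genes went from −0.03 to −0.02. The parts of the new scaling and of segment position in this drop were not tested. At what share the distal shift and the treatment contribute to the members' values cannot be told apart, since the shift separated the groups.

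The length of the segment moved with the value as well. Of 10 tested members with a main segment under 200 bp, 6 were higher and none lower (median log2FC 0.68), compared with 28.2% of other genes with such segments (median 0.32). Of 19 with at least 200 bp but under 500 bp, 6 were higher (31.6%) and 1 lower (5.26%). Among other genes of that length, 14.5% were higher and 15.9% lower (medians 0.28 and 0.06). Of 31 with the full 500 bp, 2 were higher (6.45%), Mrpl11 and Mrps7, and 2 lower (6.45%). Here 9.48% of other genes were higher, a larger share than of the members, and 18.2% lower (medians 0.07 and −0.07). Across the 60 members, Spearman's rho between segment length and log2FC was −0.41, and across all 7813 genes it was −0.13; genes share libraries and are not independent replicates. The part of segment length in the result was not tested.

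Proteins that build or serve the mitoribosome were taken from lists written by hand. For each list, the shares over all tested genes were 11.8% higher and 17.4% lower. Of 4 tested mitoribosomal proteins without an Mrp symbol, Dap3, a small-subunit GTP-binding protein, was higher (log2FC 0.67, adjusted p = 0.018) and Ptcd3, a pentatricopeptide protein of the small subunit, was lower (−2.39, adjusted p = 2.7e-04). Ptcd3 had 98.8% of its counts on segments in introns of its canonical transcript. Chchd1 and Gadd45gip1 had log2FC values of −0.25 each and were not called, and Aurkaip1 was at 0.

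Of 24 tested assembly factors, 4 were higher (16.7%) and 2 lower (8.33%), with a median of 0.20. Rbfa, which matures the small subunit, had a log2FC of 0.74, Rcc1l of 0.71, the GTPase Mtg2 of 0.57 and the RNA helicase Dhx30 of 0.40. The rRNA methyltransferase Nsun4 and the pseudouridine synthase Trub2 were lower, at −0.98 and −0.93, with their main segments 1065 bp and 14886 bp upstream of the distal end. Eral1, a chaperone of the small rRNA, had a log2FC of 0.41 and was not called (adjusted p = 0.090).

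None of 15 tested translation factors was higher and 5 were lower (33.3%), where 11.8% and 17.4% of all tested genes were. Their median log2FC was 0.06, and −0.10 when libraries were scaled by total counts alone. With that scaling the median of all genes also moved, from −0.03 to −0.20. Taco1, the translational activator of cytochrome c oxidase subunit I, fell from 114 to 12.5 CPM (log2FC −3.18, adjusted p = 1.1e-04), on a segment at its distal end. The recycling factor Mrrf (−1.62), the inner-membrane protein Letm1 (−1.25), the recycling GTPase Gfm2 (−1.23) and the peptide deformylase Pdf (−0.48) were the others. Mrrf, Letm1 and Gfm2 had between 56.6% and 59.7% of their counts on intronic segments. The elongation factor Tufm had a log2FC of 0.06 (adjusted p = 0.83).

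Of 10 tested mitochondrial aminoacyl-tRNA synthetases, 10% were higher and 20% lower. Aars2 was higher (0.94, adjusted p = 0.0029). Tars2 and Wars2 were lower (−1.70 and −1.85), with main segments 10762 bp and 22585 bp upstream of their distal ends. Of 14 tested genes of mitochondrial transcription and mRNA stability, 21.4% were higher and none was lower. Those higher were the RNA polymerase Polrmt (0.76), the FAST kinase Fastk (0.86) and the transcription factor Tfb2m (0.67). The median of 0.14 turned to −0.03 under scaling by total counts, where that of all genes was −0.20. Tfam, which packages mitochondrial DNA, had a log2FC of −0.20 and an adjusted p of 0.40.

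Genes of the cytosolic ribosome, which makes the imported proteins, and of complex I, which contains products of the mitoribosome, were called higher in larger shares. Over all tested genes, 11.8% were higher and 17.4% lower. Of 46 tested genes with a cytosolic ribosomal protein symbol, 31 were higher (67.4%) and 1 lower, with a median log2FC of 0.69. Of 29 tested genes with a complex I symbol, 18 were higher (62.1%) and 2 lower, with a median of 0.64. Both groups were taken by symbol. The first therefore also counts Rps19bp1 (higher) and the second Ndufa4l2 (not called), neither of which is a classical subunit. Rpl37, Rpl24, Rpl13 and Rpl11 led the first group (0.99, 1.34, 0.98 and 0.97), and Ndufa12, Ndufa13 and Ndufb7 rose most clearly among the second (1.00, 1.03 and 1.03), with Ndufa9 lower (−2.41). On the most distal segment alone, 14 of 35 cytosolic ribosomal genes were higher (median 0.47) and 2 of 21 complex I genes (median 0.42). In that fit, with its new scaling of the libraries, 5.75% of 5528 genes were higher (median −0.02). The difference between these groups and the mitoribosomal genes was not tested.

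**Figure D5:**
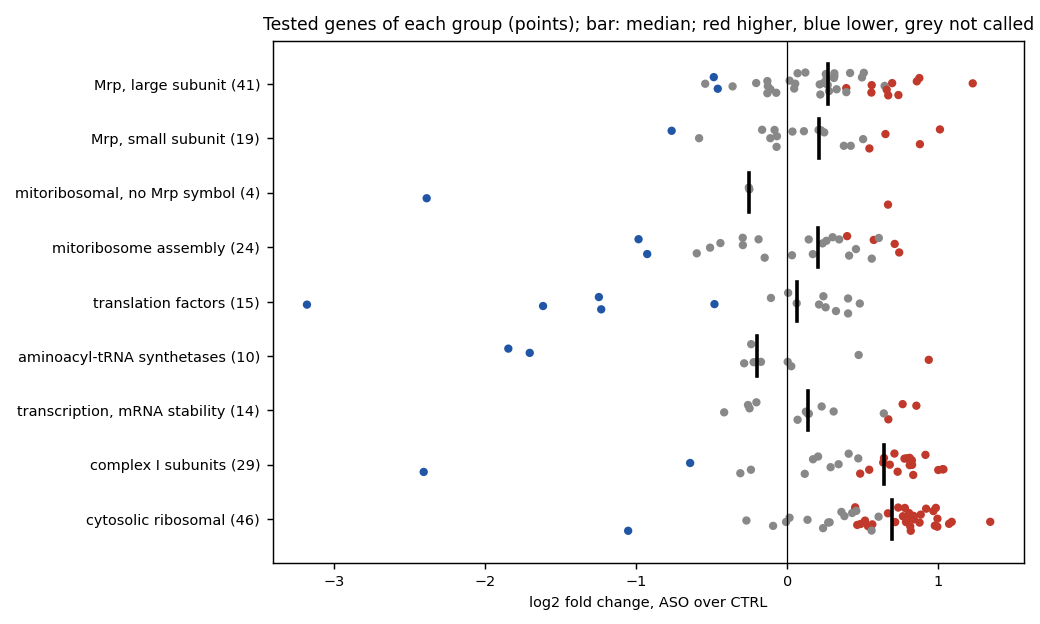
Log2 fold change (ASO over CTRL, horizontal axis) of every tested gene in 9 groups, with the number tested in brackets and the median as a black bar. The medians of the Mrp genes, 0.27 and 0.21, lie between 0 and those of the cytosolic ribosomal and complex I genes, 0.69 and 0.64, and the points furthest to the left are Taco1, Ndufa9 and Ptcd3.

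Promoters of the members were searched for 3 motifs of factors known to act on nuclear genes for mitochondrial proteins, in RefSeq windows of 250 bp before to 50 bp after the gene start (GRCm38.p6) that were found for 69 members. GCATGCGC, the core of the NRF1 site, was present on either strand in 8 members (11.6%), compared with 3.05% of 27025 genes and 6.31% of the tested genes. The ETS core CCGGAAG was in 26 members (37.7%, against 9.93% and 21.3%), and the YY1 core AAGATGGC in 12 (17.4%, against 3.19% and 5.90%). At least 1 of the 3 was in 38 of the 69 members (55.1%), compared with 30.5% of the tested genes. Of the 14 members called higher, 11 had such a window, and 7 of these held a motif. So did 3 of 3 called lower and 22 of 40 not called. The windows of the 3 called members with an NRF1 core are given with the core in capitals, on the strand of the gene. Mrpl32 has 4 matches, the 2 furthest from the gene start overlapping each other, and the one nearest to the start is shown.
Mrpl22: ggcctcggactGCGCATGCgtatagtcagc
Mrpl33: taccggaacccGCGCATGCcccggaagtag
Mrpl32: gcggacttaacGCATGCGCtcagcccgcgt
They lie at chr11:58171620-58171649 and chr5:31613928-31613957 (plus strand) and chr13:14613041-14613070 (minus strand), each with its core before the gene start. Mrpl22 and Mrpl33 rose and Mrpl32 fell, and the window of Mrpl33 also contains the ETS core, which does not overlap the NRF1 core. A match of letters says nothing of whether a factor was bound.

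Markers of the tissue and of other cells were read in the same libraries, and in bulk tissue fewer cells of a type and less RNA per cell cannot be told apart. Skeletal muscle fibre genes summed to between 40300 and 79164 CPM in CTRL and between 84279 and 129045 CPM with the ASO. Actn3 and Ckm were higher among 5 tested of 13, and Mylpf, Tnnt3 and Tnnt1 were at 0. Macrophage genes summed to between 294 and 1834 CPM in CTRL and between 79.1 and 617 CPM in treated mice, with Mrc1 and C1qc lower among 7 tested of 9 and Adgre1 and Cd163 at 0. Among 4 tested of 6 fibroblast genes, Lum, a proteoglycan of the collagen matrix, was lower without overlap, from 159 to 48.2 CPM (log2FC −1.72, adjusted p = 0.0014), and the other 3 were not called. Dcn was at 0, and the fibroblast sum was between 245 and 485 CPM in CTRL and between 70.2 and 466 CPM in treated mice. No gene was called among 5 tested endothelial, 3 Schwann cell and 4 blood genes. None of 6 tested adipocyte genes was called, and CTRL 3 had the highest adipocyte sum (13639 CPM, the other libraries between 715 and 3729 CPM). The part of these cells in the values of the mitoribosomal genes was not tested.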

How the data were processed

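Per the study's methods, reads were trimmed (fastp), mapped to GRCm39 by STAR and assigned as pairs by featureCounts (Subread), with Gencode M25 named as annotation and counting restricted to the end of 3′UTRs; no strand option is named. The authors deposited counts without normalization, 1 row for each of 52423 transcript segments. The coordinates match GRCm39, and 52361 segments were given a gene from GENCODE M39; the 62 others hold 0.0197% of the counts. Of the per-sample columns, 4 belong to none of the labelled samples and were not used. Segments were summed per gene. Genes were filtered (filterByExpr, minimum count 10) and tested with edgeR 4.0.16 (R 4.3.3; TMM, quasi-likelihood test, no covariate, Benjamini-Hochberg, threshold 0.05); DESeq2 1.42.0 and limma-voom (limma 3.58.1) were alternatives. Fits were tested on simulated data. Errors are SDs over 5 mice unless named, and library totals limit precision by counting error only.

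The members and lists were chosen with earlier results of these data known. Named genes are all members past the threshold, with values per library for up to 8 in each direction by adjusted p and for the 3 highest in CPM per kb of unshared bases, all untested members, and in other lists up to 4 called genes by adjusted p and the first listed one. Segment positions, segment sums by intron or exon of the Ensembl canonical transcript, and motif searches were added after seeing the data and carry no test. Other alternatives were RLE, total count and upper quartile scaling, 2 other filters, a replicate block, leaving out each library, the most distal segment alone and libraries drawn down to the smallest total. Figures were drawn with matplotlib 3.10.9 in Python 3.11.15.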

Additional observations from a re-analysis of the deposited data

Results flagged for a closer look

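Of 38 groups of 5 libraries examined for a library far from the others (the gap to the nearest library over the range of the group, against the critical value of Dixon for 5 values), 2 held one, where chance gives about 1 in 20. ASO 5 was the highest treated library for Mrpl11, at 280.8 CPM, with a ratio of 0.826; the other 4 were between 234 and 242 CPM, and all 5 lay above CTRL. CTRL 3 was the lowest control for Mrps23, at 136.3 CPM, with a ratio of 0.858; without CTRL 3, Mrps23 was still lower. The cause of either was not tested.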

How the results depend on the processing

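The median log2FC of the members was above 0 in every alternative, from 0.028 to 0.36, and above that of all genes. Mrpl38, Mrps7 and Mrps23 kept their calls in all 20 alternatives, and Mrpl2, Mrpl11, Mrpl52 and Mrpl55 in the 19 where they were tested. The alternative without a value was the most distal segment alone for Mrpl2, Mrpl11 and Mrpl52, as also for Mrpl33. It is the setting with the fewest members called higher, so these genes were not put through it. For Mrpl55 the missing alternative was the minimum of 10 counts in every library. Mrpl22 lost its call in 11 of 20 alternatives (without CTRL 1, CTRL 2, CTRL 3, CTRL 5, ASO 3 or ASO 5 among them), Mrpl27 in 8 of 20 (without CTRL 4, CTRL 5, ASO 1 or ASO 5), Mrps15 in 6 of 20 (without CTRL 2, CTRL 3 or ASO 3) and Mrpl33 in 5 of 19 (without CTRL 4, CTRL 5 or ASO 5). These 4 were also lost with scaling by total counts and with the replicate block. Mrps34 lost its call in 2 alternatives, and Mrpl37, Mrpl54 and Mrps24 in 1 each, the most distal segment alone. Scaling by total counts gave 9 members higher and 5 lower (median 0.08, all genes −0.20). Upper quartile scaling left 1 lower, as did no filter on low counts, and a minimum of 10 counts in every library gave 5. The most distal segment alone, where fewer members (49) are tested, gave 3 higher, 1 lower and a median of 0.028, with Mrpl3, the median gene, at 0.028 in place of −0.49. Leaving out 1 library gave between 11 and 16 higher, between 1 and 5 lower and medians from 0.20 to 0.36; the lower calls were 1 without CTRL 1, ASO 1, ASO 3 or ASO 5 and 5 without CTRL 3. The cause of these changes was not tested. DESeq2, limma-voom, RLE factors and libraries drawn down to the smallest total kept 13 or 14 higher and 3 or 4 lower. Same-numbered mice did not deviate together (correlations from −0.43 to 0.16), so the numbers were not taken as pairs; with the replicate block, 10 members were higher and 3 lower (median 0.26). Depth limits the members at few counts: a floor of 3 counts is 1.14 to 1.87 CPM.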
